A study of Mus musculus with 36 samples.

Results

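Efflux pumps and detoxifying enzymes were examined in bone marrow (BM) stem and progenitor cells. The pumps were *Abcb1a*, *Abcb1b* and *Abcg2*, and the enzymes were the aldehyde dehydrogenases *Aldh1a1*, *Aldh1a7* and *Aldh2*, the glutathione transferases *Gstm1*, *Gstm5* and *Mgst1*, and the quinone reductase *Nqo1*. These 10 genes were chosen by symbol, as transporters of the side population and as enzymes of aldehyde and glutathione metabolism, out of 38887 genes in the deposited count table. All 10 passed the filter on low counts in each of the 3 models, of LT-HSC, of HPC-1 and of both.

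RNA came from cells of the Lin-Sca-1+c-kit+ compartment sorted as LT-HSC, positive for CD150 and negative for CD48, or as HPC-1, with the opposite markers (called ST-HSC in the deposited labels), with 5000 cells per sample. All mice lacked *Apoe*, were fed a Western diet (WD) and received PBS or angiotensin II (Ang II) for 2 weeks. LT-HSC after PBS comprised 1 library of *Apoe*-/-, 3 of *Apoe*-/-*Il27ra*+/- and 3 of *Apoe*-/-*Il27ra*-/-, and after Ang II 2, 4 and 4. HPC-1 comprised 2, 3 and 3 libraries after PBS and 3, 4 and 4 after Ang II, in the same order of genotypes. The 36 libraries held 1.98 to 6.86 M (mega) counts, with a median of 3.14 M. There is no group with intact *Apoe*, and deficiency of *Il27ra* is not limited to blood cells. The labels name no sex, age or batch and do not say whether samples came from separate animals, so p-values measure the spread between these samples only. For the sequenced cells the paper's legend gives 2, 4 and 3 mice, in the same order of genotypes. The 4 Ang II *Apoe*-/-*Il27ra*-/- libraries per cell type thus exceed the 3 mice given there. Likewise, the 3 Ang II *Apoe*-/- HPC-1 libraries exceed the 2 mice given. In bulk RNA, fewer cells that express a gene and less of its RNA per cell cannot be told apart.

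ABC transporters of the Abcb1 and Abcg2 types use ATP to export drugs and dyes, and the export of a DNA dye marks the side population of BM, in which HSC are enriched. Aldehyde dehydrogenases oxidize aldehydes that arise from metabolism, alcohol or vitamin A, and a high activity of these enzymes is used to isolate stem and progenitor cells. Glutathione transferases couple glutathione to reactive compounds, and Nqo1 reduces quinones without releasing radicals.

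*Il27ra* was checked first, in counts per M (CPM) after TMM normalization over all libraries. In LT-HSC it was at 6.94 to 19.3 CPM in *Apoe*-/-*Il27ra*-/- (median 16.2, n = 7) and at 24.1 to 42.7 CPM in *Apoe*-/-*Il27ra*+/- (median 27.1, n = 7). The *Apoe*-/- LT-HSC had 17.1, 42.9 and 51.8 CPM. The lowest of these belonged to the library labelled PBS *Apoe*-/-, which thus lay within the range of *Apoe*-/-*Il27ra*-/-. In HPC-1 the level was 4.64 to 11.1 CPM in *Apoe*-/-*Il27ra*-/- and 6.07 to 11.9 CPM in *Apoe*-/-, and these overlapping ranges do not check the labels.

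A few libraries stood apart. *Slamf1*, which encodes CD150, was at 0 to 8.23 CPM in HPC-1 and at 21.9 to 73.8 CPM in 15 of the 17 LT-HSC libraries, whereas *Cd48* was at 44.0 to 85.6 CPM in HPC-1 and at 0 to 4.16 CPM in those 15. The library labelled PBS *Apoe*-/-*Il27ra*-/- LT-HSC replicate 2 had 2.36 CPM of *Slamf1* and 62.6 CPM of *Cd48*, both within the HPC-1 ranges. The library labelled Ang II *Apoe*-/-*Il27ra*-/- LT-HSC replicate 2 lay between the cell types, with *Slamf1* at 20.7 CPM and *Cd48* at 8.20 CPM. Its summed granulocyte markers reached 9147 CPM, led by *S100a9* at 2182 CPM, against a median of 74.6 CPM over all LT-HSC. Both lay outside the ranges of the other 15 for *Slamf1* and *Cd48*, and they are called the 2 outlying libraries below. The comparison of LT-HSC with HPC-1 and the likeness of members within LT-HSC are also given without these 2 libraries, whereas medians and orders of level include them. Among the other 15, the library labelled PBS *Apoe*-/-*Il27ra*-/- replicate 3 had *Slamf1* at 44.0 CPM but 1527 CPM of granulocyte markers, led by *Ngp* at 389 CPM, and the highest erythroid sum of all LT-HSC, 3607 CPM, against a median of 517 CPM. With that library alone left out, the same 4 members passed between the cell types as with all libraries.

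The *Apoe*-/- LT-HSC libraries carried more RNA of intestinal epithelial genes, and the HPC-1 libraries of this genotype were set apart by 5 genes of the same list. The summed level of a list of 25 such genes was 1113 to 1247 CPM in *Apoe*-/- LT-HSC and 463 to 709.9 CPM in the other LT-HSC, and 15 of the 25 genes were higher in every *Apoe*-/- LT-HSC library than in every other LT-HSC library. In HPC-1 the sums overlapped, at 565 to 733 CPM in *Apoe*-/- and 405 to 722 CPM in the others, but *Agr2* (3.29 to 31.2 against 0 to 1.85 CPM), *Epcam*, *Krt8*, *Krt20* and *Spink4*, 5 of the 25, were higher in every *Apoe*-/- HPC-1 library than in every other, and 18 to 20 of the 25 genes had a count in a *Apoe*-/- HPC-1 library against 3 to 16 in the rest. *Muc13* was the most abundant gene of the list, at 522 to 670.0 CPM in *Apoe*-/- LT-HSC and at 362 to 616 CPM in the LT-HSC of the other genotypes, and *Fabp1* was at 0 everywhere. Depth and sex-linked RNA also moved together, since all 11 libraries of 4 M counts or more, and 1 library under it, had no Y-linked count above the limit of 3 counts per library. All *Apoe*-/- libraries were under 4 M.

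In LT-HSC against HPC-1, *Abcb1a*, *Abcg2*, *Aldh1a1* and *Gstm5* were higher in LT-HSC, and no member was lower. The comparison asks how the stem cell and the more differentiated progenitor population differ over all treatments and genotypes, as the mean of the 6 pairs of groups. These 4 of 10 members compare with 6435 of 18013 genes tested, or 35.7%, so that the share of members is near that of all genes. In the upward direction it was 16.5% of all genes and in the downward direction 19.2%. The median log2 fold change was 0.16 over the members and −0.01 over all genes tested. Without the 8 *Apoe*-/- libraries, *Aldh2* and *Nqo1* passed too, which made 6 members against 46.5% of all genes in that fit. With the 2 outlying LT-HSC libraries also left out, 6 members passed, against 47.9%.

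**Figure D1:**
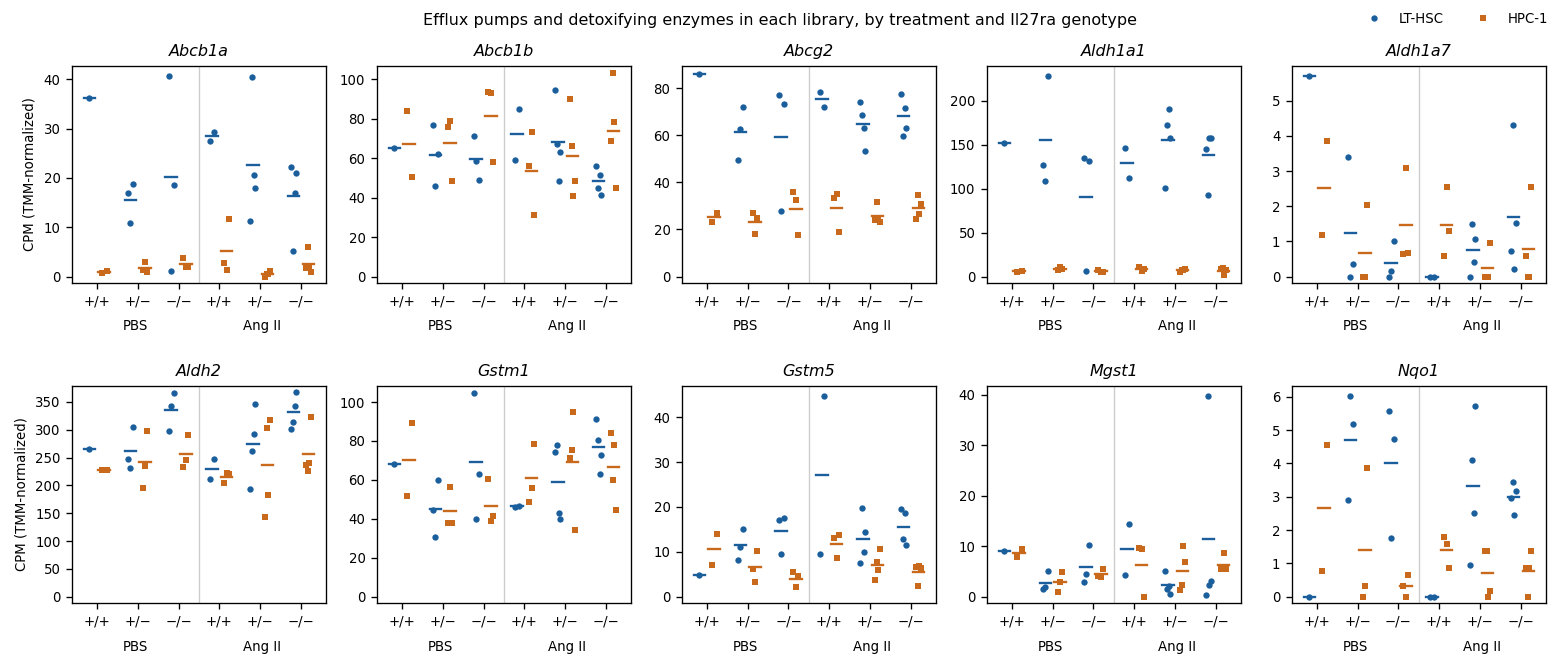
TMM-normalized CPM of each gene (vertical axes, linear) in each of the 36 libraries, by treatment and *Il27ra* genotype (horizontal axes). Circles are LT-HSC libraries, squares HPC-1 libraries and bars the mean of each group. *Aldh1a1* lay between 1.45 and 11.4 CPM in HPC-1 and above this in 16 of 17 LT-HSC libraries.

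Among the pumps, *Abcb1a* (P-glycoprotein, ENSMUSG00000040584) was at 1.18 to 40.7 CPM in LT-HSC (median 18.8, n = 17) and at 0 to 11.7 CPM in HPC-1 (median 1.32, n = 19). Thus 13 of 17 LT-HSC libraries exceeded the highest HPC-1 library. The lowest LT-HSC values, 1.18 and 5.18 CPM, were those of the 2 outlying libraries, and 13 of the other 15 lay above all HPC-1. The highest HPC-1 value came from Ang II *Apoe*-/- replicate 3, in which the epithelial sum was 733 CPM. *Abcb1a* had a log2 fold change of 3.61 (SE 0.375, edgeR quasi-likelihood fit, Benjamini-Hochberg adjusted p = 2.18e-09), and of 3.83 without that HPC-1 library and 3.49 without all *Apoe*-/- libraries, both past the threshold. The mean was 20.9 ± 11.2 CPM (SD, n = 17) in LT-HSC and 2.25 ± 2.67 CPM (SD, n = 19) in HPC-1.

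*Abcb1b* (ENSMUSG00000028970), the tandem copy of the same pump, behaved otherwise. It was at 41.2 to 94.8 CPM in LT-HSC (median 59.2) and at 31.2 to 103 CPM in HPC-1 (median 68.9), and no LT-HSC library lay above the highest HPC-1 library. Its log2 fold change was −0.11 (SE 0.139), less than its standard error, with a Benjamini-Hochberg adjusted p of 0.655 in the edgeR quasi-likelihood fit. Whether the copies differed from each other in their change was not tested. When their counts were summed, the log2 fold change was 0.29 (SE 0.133, adjusted p = 0.0927, same test), and *Abcb1b* RNA was the more abundant in both cell types, at 14.2 against 4.18 CPM per kb of transcript in LT-HSC and at 15.7 against 0.451 CPM per kb in HPC-1.

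*Abcg2* (ENSMUSG00000029802), the pump behind the side population phenotype, was at 27.8 to 86.1 CPM in LT-HSC (median 71.6) and at 17.8 to 36.01 CPM in HPC-1 (median 26.7). All 15 LT-HSC libraries other than the 2 outlying ones were above every HPC-1 library, as was 1 of those 2. A log2 fold change of 1.36 was fitted (SE 0.124, edgeR quasi-likelihood fit, Benjamini-Hochberg adjusted p = 5.81e-11). By group, the mean of *Abcg2* was 61.4 ± 11.2 CPM in PBS *Apoe*-/-*Il27ra*+/- LT-HSC (SD, n = 3) and 23.2 ± 4.71 CPM in the matching HPC-1 (SD, n = 3).

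Among the aldehyde dehydrogenases, *Aldh1a1* (ENSMUSG00000053279), a cytosolic enzyme that oxidizes retinaldehyde to retinoic acid, differed most in fold. Its level was 6.50 to 228 CPM in LT-HSC (median 145) and 1.45 to 11.4 CPM in HPC-1 (median 7.39). Only the library labelled PBS *Apoe*-/-*Il27ra*-/- replicate 2, one of the outlying libraries, fell within the HPC-1 range. The next lowest LT-HSC library had 93.2 CPM. On the log2 scale the fold change was 4.23 (SE 0.294, edgeR quasi-likelihood fit, Benjamini-Hochberg adjusted p = 6.10e-11), an 18.7-fold difference. In each of the 5 pairs of groups with replicates taken alone, *Aldh1a1* passed as well, with log2 fold changes of 3.87 to 4.43, though in PBS *Apoe*-/-*Il27ra*-/- not with every library left out, as given below.

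*Aldh1a7* (ENSMUSG00000024747), the close copy of *Aldh1a1*, was at or near the limit of detection. It had 0 to 5.71 CPM in LT-HSC (median 0.420) and 0 to 3.85 CPM in HPC-1 (median 0.637), and 2 of 17 LT-HSC libraries lay above all HPC-1. The fitted log2 fold change was −0.53 (SE 0.639), and it rests on groups without a count. *Aldh2* (ENSMUSG00000029455), the mitochondrial enzyme that clears acetaldehyde, was the most abundant member per length in both cell types. It was at 193 to 367 CPM in LT-HSC (median 298) and at 143 to 322 CPM in HPC-1 (median 233), and 5 of 17 LT-HSC libraries exceeded all HPC-1. The log2 fold change of *Aldh2* was 0.23 (SE 0.0946, edgeR quasi-likelihood fit, Benjamini-Hochberg adjusted p = 0.0556), and it passed the threshold under 8 of 13 alternatives, with adjusted p-values of 0.00499 to 0.123. It also passed in 14 of 36 fits with 1 library left out (0.23 to 0.29), so that the call turns on single libraries. These were PBS *Apoe*-/-, replicate 2 of PBS *Apoe*-/-*Il27ra*+/-, and after Ang II 1 or 4 of *Apoe*-/-*Il27ra*+/- or of *Apoe*-/-*Il27ra*-/- in LT-HSC, and in HPC-1 replicate 1 or 3 of PBS *Apoe*-/-*Il27ra*+/-, 3 of PBS *Apoe*-/-*Il27ra*-/-, 2 of Ang II *Apoe*-/-, 1, 2 or 4 of Ang II *Apoe*-/-*Il27ra*+/- and 4 of Ang II *Apoe*-/-*Il27ra*-/-.

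*Aldh2* also moved with depth. In LT-HSC it was at 292 to 367 CPM in the 7 libraries of 4 M counts or more and at 193 to 315 CPM in the 10 smaller ones, and in HPC-1 at 291 to 322 CPM in 4 larger and 143 to 303 CPM in 15 smaller libraries. The larger libraries were thus high in either cell type. Since they are also the ones without Y-linked counts, depth and sex-linked RNA cannot be told apart here. With Y-linked expression as a covariate, the log2 fold change of *Aldh2* was 0.16 (edgeR quasi-likelihood fit, Benjamini-Hochberg adjusted p = 0.108). *Abcb1b* had the opposite arrangement in HPC-1, with 44.8 to 58.0 CPM in the larger libraries (median 48.4) and an overlapping 31.2 to 103 CPM in the smaller ones (median 75.8). *Gstm1* in HPC-1 was likewise at 34.4 to 44.4 CPM in the larger libraries (median 39.7) and at an overlapping 38.1 to 94.7 CPM in the smaller ones (median 60.2). The part of depth in these levels was not tested.

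Among the glutathione transferases, *Gstm1* (ENSMUSG00000058135), a cytosolic transferase of the mu class, was at 30.7 to 105 CPM in LT-HSC (median 62.9) and at 34.4 to 94.7 CPM in HPC-1 (median 56.3). The ranges overlapped, with 1 LT-HSC library above and 1 below all HPC-1, and the log2 fold change was 0.02 (SE 0.151). *Gstm5* (ENSMUSG00000004032), of the same class, was at 4.76 to 44.8 CPM in LT-HSC (median 12.9) and at 2.15 to 14.02 CPM in HPC-1 (median 6.63), and 8 of 17 LT-HSC libraries lay above all HPC-1. Its highest value, 44.8 CPM, belonged to Ang II *Apoe*-/- LT-HSC replicate 2, and its lowest LT-HSC value to the library labelled PBS *Apoe*-/-. The log2 fold change of *Gstm5* was 0.83 (SE 0.240, edgeR quasi-likelihood fit, Benjamini-Hochberg adjusted p = 0.00516). It was 0.58 without Ang II *Apoe*-/- LT-HSC replicate 2, which ended the call (adjusted p = 0.0559, same test), and 1.24 without all *Apoe*-/- libraries (adjusted p = 6.33e-05, same test).

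*Mgst1* (ENSMUSG00000008540), a microsomal transferase of membranes, was at 0.370 to 39.7 CPM in LT-HSC (median 3.17) and at 0 to 9.99 CPM in HPC-1 (median 5.50). Its highest value rests on 92 counts in replicate 2 of Ang II *Apoe*-/-*Il27ra*-/- LT-HSC, the library with the granulocyte markers, and the next highest LT-HSC libraries had 14.4 CPM (Ang II *Apoe*-/- replicate 2) and 10.3 CPM (PBS *Apoe*-/-*Il27ra*-/- replicate 3, also with granulocyte markers). The part of these markers in the *Mgst1* level was not tested. Its log2 fold change was 0.08 (SE 0.461), and it was −0.29 (SE 0.394) without the 2 outlying libraries, neither beyond its standard error, and −0.02 without PBS *Apoe*-/-*Il27ra*-/- LT-HSC replicate 3.

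*Nqo1* (ENSMUSG00000003849) was low. It had no count in any of the 3 *Apoe*-/- LT-HSC libraries, whereas the 14 libraries of the other genotypes had 0.943 to 6.02 CPM (median 3.31), from 2 to 43 counts each. The lowest of these, 0.943 CPM, lies below the limit of 3 counts in an *Apoe*-/- LT-HSC library, which is 1.43 to 1.49 CPM. The share of all genes with such an arrangement in LT-HSC was not counted. In HPC-1 it was at 0.787 to 4.56 CPM in *Apoe*-/- (median 1.59, n = 5) and at 0 to 3.86 CPM in the other genotypes (median 0.492, n = 14). The LT-HSC libraries without *Nqo1* are those rich in intestinal epithelial genes, and the part of that RNA was not tested. Over all pairs of groups the log2 fold change of *Nqo1* between LT-HSC and HPC-1 was −0.42 (SE 0.490, edgeR quasi-likelihood fit, Benjamini-Hochberg adjusted p = 0.620), a value that depends on the groups at 0. Without the *Apoe*-/- libraries it was 2.32 (SE 0.524, adjusted p = 0.000633, same test), and 6 of the 14 LT-HSC libraries then lay above all 14 HPC-1 libraries, against 5 of 17 above all HPC-1 with every library. Whether the difference between the cell types depends on genotype was not tested.

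**Figure D2:**
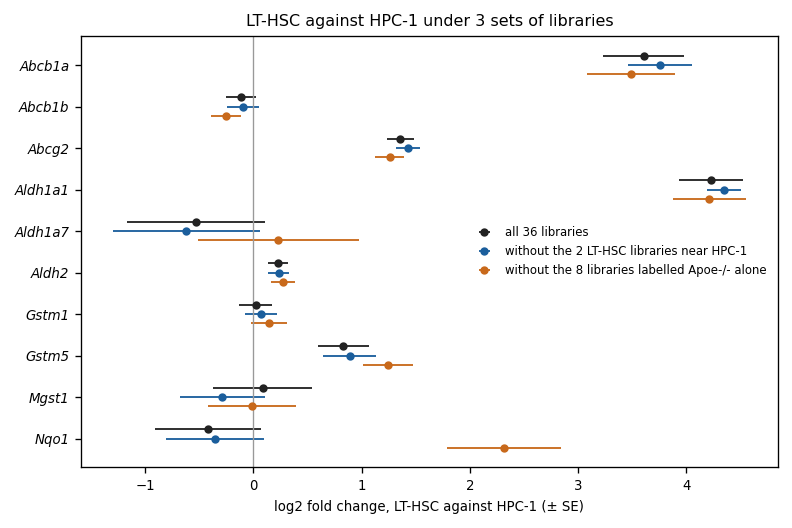
Log2 fold change of each gene between LT-HSC and HPC-1 (horizontal axis, positive where LT-HSC are higher), with bars of 1 standard error, from all 36 libraries, without the 2 outlying LT-HSC libraries and without the 8 libraries labelled *Apoe*-/- alone. *Nqo1* moved from −0.42 to 2.32 when the latter were left out, while *Aldh1a1*, *Abcb1a* and *Abcg2* stayed above 0 in all 3.

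The difference between the cell types was also read in each of the 5 pairs of groups with 2 or more libraries per cell type. In Ang II *Apoe*-/-*Il27ra*-/-, *Abcb1a*, *Abcg2*, *Aldh1a1* and *Gstm5* were higher in LT-HSC, 4 of 10 members against 12.5% of all genes. There, *Gstm5* lost its call in libraries under 4 M counts (adjusted p = 0.246, over 13 alternatives from 0.00603) and without LT-HSC replicate 1 or 3 or any of the 4 HPC-1 libraries (1.23 to 1.57), and *Abcb1a* in libraries under 4 M counts (0.142, from 1.20e-05). In Ang II *Apoe*-/-*Il27ra*+/- there were 3 (against 14.9%) and in PBS *Apoe*-/-*Il27ra*+/- also 3 (against 7.67%), in both cases *Abcb1a*, *Abcg2* and *Aldh1a1*. *Abcb1a* in PBS *Apoe*-/-*Il27ra*+/- lost its call in libraries under 4 M counts and without LT-HSC replicate 3 or HPC-1 replicate 1 or 3 (2.66 to 3.14). *Abcg2* and *Aldh1a1* passed in Ang II *Apoe*-/- (against 10.4%), where *Abcg2* lost its call with the replicate block and *Abcb1a*, at 2.49 (SE 0.851), passed under 8 of 11 alternatives and in 6 of 36 fits with 1 library left out, among them that without HPC-1 replicate 3 (3.801). In PBS *Apoe*-/-*Il27ra*-/-, *Aldh1a1* passed alone, against 0.883% of all genes, and 1 of the 3 LT-HSC libraries there is the one near HPC-1. Without that library *Abcb1a* (3.55), *Abcg2* (1.42) and *Gstm5* (2.10) passed too, and over 13 alternatives they passed under 6, 8 and 4. Each share of all genes given for these pairs is that of the fit to all libraries. The shares in the other fits are not given here. Fits that left out Ang II *Apoe*-/- HPC-1 replicate 3 called *Abcb1a* (2.96) and *Abcg2* (1.07) as well, and *Abcg2* passed without PBS *Apoe*-/-*Il27ra*+/- HPC-1 replicate 1 (1.13) or Ang II *Apoe*-/-*Il27ra*-/- HPC-1 replicate 2 (1.09). *Aldh1a1* lost its call with the replicate block (3.32) and without replicate 1 or 3 of LT-HSC or 1 or 2 of HPC-1 (3.50 to 4.09). With limma-voom alone, *Nqo1* passed in *Apoe*-/-*Il27ra*+/- (3.18 after PBS, 2.12 after Ang II) and in *Apoe*-/-*Il27ra*-/- (3.36 and 1.68), and *Aldh2* passed in *Apoe*-/-*Il27ra*-/- after Ang II (0.44). These pairs were not tested against each other.

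The order of the members by level was read in CPM per kb of transcript. In LT-HSC the mean was 75.04 for *Aldh2*, 66.5 for *Aldh1a1* and 47.7 for *Gstm1*, all in CPM per kb. *Gstm5* followed at 15.7, *Abcb1b* at 14.2, *Abcg2* at 11.6, *Mgst1* at 5.48, *Abcb1a* at 4.18, *Nqo1* at 1.95 and *Aldh1a7* at 0.580 CPM per kb. Each member overlapped with its neighbour in this order over the libraries. The *Mgst1* mean includes the library at 39.7 CPM. Without the 2 outlying libraries, the ratio of mean CPM in LT-HSC to HPC-1 fell from 1.16 to 0.782 for *Mgst1*. For *Abcb1a* it rose from 9.28 to 10.3, so that *Abcb1a* then lies above *Mgst1*. In HPC-1 *Aldh2* (62.3 CPM per kb) and *Gstm1* (46.5) stood above the rest, since the lowest *Gstm1* library (26.7 CPM per kb) exceeded the highest *Abcb1b* library (24.0). After *Abcb1b* at a mean of 15.7 CPM per kb came *Gstm5* at 7.75, *Mgst1* and *Abcg2* both at 4.72, *Aldh1a1* at 3.53, *Nqo1* at 0.704, *Aldh1a7* at 0.509 and *Abcb1a* at 0.451, again with overlap between neighbours. *Aldh1a1* thus had rank 2 of 10 by level in LT-HSC and rank 7 in HPC-1.

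Other genes of the same families and pathways were counted in LT-HSC against HPC-1, from lists that leave out the 10 members. Each list's counts are to be read against the shares over all genes tested, 16.5% higher and 19.2% lower. Of 13 other multidrug ABC transporters, 9 were tested, of which 5 were higher in LT-HSC and 0 lower, with a median log2 fold change of 0.44. *Abcg3*, a relative of *Abcg2*, had a median of 54.4 CPM in LT-HSC and of 0.290 CPM in HPC-1 (log2 fold change 6.68, SE 0.513), and *Abcc5*, an exporter of cyclic nucleotides, 98.4 against 53.6 CPM (log2 fold change 0.75, SE 0.111). *Abcc10* had a log2 fold change of 1.11 (SE 0.245). The number of lower transporters was 2 with limma-voom and 1 without the 2 outlying libraries. It was also 1 without PBS *Apoe*-/-*Il27ra*+/- LT-HSC replicate 1, Ang II *Apoe*-/- LT-HSC replicate 2 or Ang II *Apoe*-/-*Il27ra*-/- LT-HSC replicate 2.

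Of 17 other aldehyde dehydrogenases, 14 were tested, 4 were higher and 3 lower in LT-HSC, with a median log2 fold change of −0.01. The higher ones included *Aldh1l1* of folate metabolism (log2 fold change 1.05, SE 0.203), *Aldh7a1* of lysine breakdown (0.78, SE 0.158) and *Aldh6a1* of valine breakdown (0.58, SE 0.149). *Aldh4a1* of proline breakdown (−2.16, SE 0.350), *Aldh1b1* (−1.22, SE 0.263) and *Aldh9a1* (−0.47, SE 0.104) were lower. *Aldh4a1* was at −0.83 without the single library PBS *Apoe*-/- LT-HSC, and without all *Apoe*-/- libraries it had −0.30 and lost its call. Of 20 other glutathione transferases, 15 were tested, 6 were higher and 1 lower, with a median of 0.54, and 3 were higher in libraries under 4 M counts. *Gstm2*, a neighbour of *Gstm1*, had medians of 5.32 CPM in LT-HSC and 0.646 CPM in HPC-1 (log2 fold change 3.21, SE 0.500), and *Gsta4* (2.13, SE 0.382) and *Gstt1* (2.59, SE 0.510) were higher as well. *Gstt1* lost its call without Ang II *Apoe*-/- LT-HSC replicate 2 (1.61). The lower one was *Gsto1* (−0.50, SE 0.0910), with 83.9 CPM in HPC-1 and 52.9 CPM in LT-HSC by median.

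The list of Nrf2 and antioxidant genes, which includes relatives of *Nqo1* in regulation, held 20 genes, all tested, of which 2 were higher and 8 lower in LT-HSC (median log2 fold change −0.21). *Srxn1*, which repairs peroxiredoxins (1.56, SE 0.309), and the heme oxygenase *Hmox1* (1.46, SE 0.491) were higher, the latter without a call under 4 of 13 alternatives, and the count of higher genes was 1 to 4 over these. *Gpx1* (glutathione peroxidase) was at a median of 210 CPM in LT-HSC and 385 CPM in HPC-1 (log2 fold change −0.86, SE 0.138), and *G6pdx* (−0.71, SE 0.152) and *Prdx1* (−0.45, SE 0.111) were lower too. Of 6 genes of the aryl hydrocarbon receptor, itself a regulator of *Nqo1*, all tested, 3 were higher and 0 lower with a median of 0.11, namely *Ahr* (1.17, SE 0.298), *Arnt* (0.37, SE 0.0841) and *Ahrr* (1.62, SE 0.610). *Ahrr* lost its call under 3 of 12 alternatives and without PBS *Apoe*-/- LT-HSC, PBS *Apoe*-/-*Il27ra*+/- LT-HSC replicate 2, PBS *Apoe*-/-*Il27ra*-/- LT-HSC replicate 1 or PBS *Apoe*-/- HPC-1 replicate 1 (1.25 to 1.53), and was at 2.46 without PBS *Apoe*-/- HPC-1 replicate 2.

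Of 11 further genes of retinoic acid, the product of Aldh1a1, 8 were tested, 4 were higher in LT-HSC and 1 was lower, with a median log2 fold change of 0.75. *Cyp26b1*, which degrades retinoic acid, was at medians of 23.7 CPM in LT-HSC and 0.350 CPM in HPC-1 (log2 fold change 5.61, SE 0.594) and the receptors *Rarg* at 24.7 against 12.1 CPM (1.14, SE 0.230) and *Rarb* at 14.4 against 1.45 CPM (2.45, SE 0.574). *Rarb* lost its call without Ang II *Apoe*-/- LT-HSC replicate 1 (1.15), and with each library left out its log2 fold change was 1.15 to 3.59. For *Cyp26b1*, 16 of 17 LT-HSC libraries lay above all HPC-1 libraries, as for *Aldh1a1*. The reductase *Dhrs3* was lower (−0.64, SE 0.225), without a call under 2 of 13 alternatives and without Ang II *Apoe*-/- LT-HSC replicate 1, PBS *Apoe*-/- HPC-1 replicate 1, PBS *Apoe*-/-*Il27ra*+/- HPC-1 replicate 1 or Ang II *Apoe*-/- HPC-1 replicate 2 (−0.56 to −0.52). These lists were described by their counts, without a test of the list.

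After Ang II infusion against PBS, no member passed the threshold in either cell type. The question was whether the infusion that drives aneurysm in these mice alters drug export and detoxification in HSC. In LT-HSC, *Aldh1a1* was at 6.50 to 228 CPM after PBS (median 131, n = 7) and at 93.2 to 189.8 CPM after Ang II (median 152, n = 10). *Abcg2* was at 27.8 to 86.1 CPM after PBS (median 71.9) and at 53.4 to 78.5 CPM after Ang II (median 70.0). The ranges of the treatments overlapped for both genes, and the PBS minima are those of *Apoe*-/-*Il27ra*-/- replicate 2, a library near HPC-1. *Nqo1* had medians of 4.73 CPM after PBS and 2.74 CPM after Ang II in LT-HSC, again with overlap.

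In HPC-1 the levels overlapped in the same way. *Aldh2* had medians of 234 CPM after PBS (n = 8) and 227 CPM after Ang II (n = 11), *Abcb1b* of 77.4 and 66.2 CPM and *Gstm1* of 46.4 and 71.4 CPM, genes whose levels also moved with depth. Over 7 comparisons, each by genotype or as the mean of genotypes, 0 of 70 tests of members passed with edgeR's quasi-likelihood test, 0 had an unadjusted p under 0.05, and DESeq2 and limma-voom gave 0 as well. Of all genes tested, 0 passed in each of the 7, so that the percentage of genes called was 0. The log2 fold changes of the members lay between −1.55 and 2.47, the extremes both for *Abcb1a* in HPC-1, where it had few counts. The *Apoe*-/- LT-HSC, with 1 library after PBS, were not tested.

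The response to Ang II was also compared between *Apoe*-/-*Il27ra*-/- and *Apoe*-/-*Il27ra*+/-. In LT-HSC the median difference of the log2 fold changes over the members was 0.01, and in HPC-1 it was 0.17. With edgeR's quasi-likelihood test 0 of 20 tests passed, 0 were under 0.05 without adjustment, and DESeq2 and limma-voom gave 0. Among all genes 0 passed in either cell type.

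Between the *Il27ra* genotypes, *Nqo1* came closest to a difference. In Ang II LT-HSC it had no count in both *Apoe*-/- libraries (2.08 and 2.24 M counts in all), 0.943, 4.12, 2.52 and 5.71 CPM in the *Apoe*-/-*Il27ra*+/- libraries and 2.96, 3.45, 2.45 and 3.17 CPM in *Apoe*-/-*Il27ra*-/-. Every *Apoe*-/-*Il27ra*-/- library and 3 of 4 *Apoe*-/-*Il27ra*+/- libraries lay above the limit of 3 counts in a library of *Apoe*-/-, which is 1.44 or 1.49 CPM, and *Apoe*-/-*Il27ra*+/- replicate 1 had 2 counts. The mean was thus at least 2.05-fold higher in *Apoe*-/-*Il27ra*-/- and at least 2.26-fold higher in *Apoe*-/-*Il27ra*+/- than that limit. The adjusted p was 0.0538 for *Apoe*-/-*Il27ra*-/- and 0.0643 for *Apoe*-/-*Il27ra*+/- against *Apoe*-/- (edgeR quasi-likelihood fit, Benjamini-Hochberg), so neither passed, while 277 genes (1.69% of 16365 tested) passed for *Apoe*-/-*Il27ra*-/- and 136 (0.831%) for *Apoe*-/-*Il27ra*+/-. Both comparisons use the same 2 libraries, which carry the intestinal epithelial genes. With DESeq2 both values passed (adjusted p of 0.0420 and 0.0458), and with limma-voom neither did (0.346 and 0.476). Over the alternatives the adjusted p ranged from 0.0420 to 0.468 for *Apoe*-/-*Il27ra*-/- and from 0.0458 to 0.825 for *Apoe*-/-*Il27ra*+/-.

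After PBS, the single library labelled *Apoe*-/- had no *Nqo1* count either, while *Apoe*-/-*Il27ra*+/- LT-HSC had 2.91, 6.02 and 5.18 CPM and *Apoe*-/-*Il27ra*-/- LT-HSC 5.57, 1.77 and 4.73 CPM. This comparison with *Apoe*-/- has no replicate check. Between *Apoe*-/-*Il27ra*-/- and *Apoe*-/-*Il27ra*+/- the log2 fold change of *Nqo1* was −0.26 after PBS (SE 0.726) and −0.17 after Ang II (SE 0.637), both less than the standard error. In HPC-1 the *Apoe*-/- libraries did not have the lowest *Nqo1*, with 0.787 and 4.56 CPM after PBS and 1.80, 1.59 and 0.867 CPM after Ang II.

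Across all 12 comparisons of genotypes, 0 of 120 tests of members passed with edgeR's quasi-likelihood test, 12 (10%) had an unadjusted p under 0.05 against 6.49% over all genes, DESeq2 gave 2, both for *Nqo1*, and limma-voom 0. Of these 12, 5 were in the Ang II LT-HSC comparisons with *Apoe*-/-, where 17.7% (*Apoe*-/-*Il27ra*-/-) and 15.7% (*Apoe*-/-*Il27ra*+/-) of all genes were under 0.05. The share of all genes called with DESeq2 is not given here. Of all genes, 1 passed for *Apoe*-/-*Il27ra*-/- against *Apoe*-/-*Il27ra*+/- LT-HSC as the mean of treatments (0.00611%), 2 for PBS *Apoe*-/-*Il27ra*-/- against *Apoe*-/- HPC-1 (0.0152%), and 0 in the 8 comparisons not yet named. *Aldh2* in Ang II LT-HSC was at 212 and 247 CPM in *Apoe*-/-. The *Apoe*-/-*Il27ra*-/- libraries had 301, 315, 343 and 367 CPM, and the *Apoe*-/-*Il27ra*+/- libraries 193, 262, 292 and 347 CPM. All *Apoe*-/-*Il27ra*-/- values thus lay above both *Apoe*-/- values, and those of *Apoe*-/-*Il27ra*+/- overlapped with both. How many of all genes separate these few libraries in the same way was not counted. Both *Apoe*-/- libraries were small, at 2.08 and 2.24 M counts, and carry the intestinal epithelial genes, and *Aldh2* moved with depth. The part of depth or of that RNA in this arrangement was not tested. The log2 fold change of *Aldh2* between *Apoe*-/-*Il27ra*-/- and *Apoe*-/- was 0.54 (SE 0.197, edgeR quasi-likelihood fit, Benjamini-Hochberg adjusted p = 0.154).

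*Gstm1* over both treatments was at 40.0 to 105 CPM in *Apoe*-/-*Il27ra*-/- LT-HSC (median 72.6, n = 7) and at 30.7 to 77.9 CPM in *Apoe*-/-*Il27ra*+/- (median 44.7, n = 7), with a log2 fold change of 0.50 (SE 0.219, edgeR quasi-likelihood fit, Benjamini-Hochberg adjusted p = 1.00). In HPC-1 the medians of *Gstm1* were 60.2 and 56.3 CPM. *Abcb1b* in Ang II LT-HSC was at 56.2, 44.9, 51.7 and 41.2 CPM in *Apoe*-/-*Il27ra*-/-, whereas the *Apoe*-/-*Il27ra*+/- libraries had 94.8, 67.0, 48.2 and 62.9 CPM (log2 fold change −0.48, SE 0.215). The ranges overlapped for both genes. *Mgst1* differed between *Apoe*-/-*Il27ra*-/- and *Apoe*-/-*Il27ra*+/- in Ang II LT-HSC by 2.37 on the log2 scale (SE 1.099) with the library at 39.7 CPM, and by −0.10 without it.

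*Abcb1a* in Ang II HPC-1 was at 0, 0.456, 0.434 and 1.13 CPM in *Apoe*-/-*Il27ra*+/-. The *Apoe*-/- libraries had 2.69, 1.27 and 11.7 CPM, and the *Apoe*-/-*Il27ra*-/- libraries 1.73, 5.91, 1.74 and 0.983 CPM. Of the *Apoe*-/-*Il27ra*+/- libraries, 3 of 4 lay below all others and 1 within the range of *Apoe*-/-*Il27ra*-/-. On the log2 scale *Apoe*-/-*Il27ra*+/- differed from *Apoe*-/- by −3.13 (SE 1.07, edgeR quasi-likelihood fit, Benjamini-Hochberg adjusted p = 0.637), by −1.74 without the *Apoe*-/- library at 11.7 CPM, by −3.96 without *Apoe*-/-*Il27ra*+/- replicate 4 and by −1.46 with limma-voom, and none of these passed. *Gstm5* in HPC-1 was at 7.08 to 14.02 CPM in *Apoe*-/- (n = 5), at 3.25 to 10.7 CPM in *Apoe*-/-*Il27ra*+/- and at 2.15 to 6.95 CPM in *Apoe*-/-*Il27ra*-/- (n = 7 each), so that every *Apoe*-/- library lay above every *Apoe*-/-*Il27ra*-/- library over both treatments, as for 65 of 13199 genes (0.492%), while 0.0152% of all genes passed between these genotypes after PBS and 0% after Ang II. The *Apoe*-/- HPC-1 libraries, to which both genes are compared here, are also those set apart by *Agr2*, *Epcam*, *Krt8*, *Krt20* and *Spink4*, and the part of that RNA in the levels of *Abcb1a* and *Gstm5* was not tested. Tested after PBS and after Ang II, *Apoe*-/-*Il27ra*-/- differed from *Apoe*-/- by −1.38 (SE 0.669) and −1.10 (SE 0.555) on the log2 scale, and neither passed. No gene of the 6 pathway lists passed in any comparison of genotype or treatment with edgeR's quasi-likelihood test.

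Within each cell type, the likeness of members over the libraries was described by Pearson r of log2 CPM. Over the 17 LT-HSC libraries *Aldh1a1* had r = 0.815 with *Abcg2* and 0.832 with *Abcb1a*, and *Abcg2* had 0.810 with *Abcb1a*. The library labelled PBS *Apoe*-/-*Il27ra*-/- replicate 2, within the HPC-1 ranges of *Slamf1* and *Cd48*, has the lowest value of all 3 genes and enters here. Without the 2 outlying libraries (n = 15) the same pairs had r = −0.0103, 0.299 and 0.428, so that the high values depend on those 2 libraries. Over the 19 HPC-1 libraries, where the 3 genes were lower, they had 0.0629, 0.283 and −0.0376. *Abcb1a* with its copy *Abcb1b* had 0.230 in LT-HSC and −0.0786 in HPC-1, and *Abcb1b* with *Gstm5* had −0.697 in HPC-1.

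The genes most like each member over the 36 libraries were named by Pearson r of log2 CPM, as a description in which the points share cell type and depth, and the difference between the cell types enters. For *Aldh1a1* they were *Arhgef12* (r = 0.983), *St3gal1* (0.972) and *Med12l* (0.969), and for *Abcg2* *Arhgef12* (0.934), *Mmrn1* (0.928) and *Itsn1* (0.927). For *Abcb1a* they were *Jam3* (r = 0.927), *Rassf6* (0.921) and *Ptpn21* (0.920). *Abcb1b* was nearest to *Eif2ak2* (r = 0.771), *Aldh2* to *Mau2* (0.811), *Gstm5* to *Lmna* (0.795), *Nqo1* to *Cyp2u1* (0.778) and *Mgst1* to *Pglyrp1* (0.721), a granulocyte protein. *Gstm1* (r = 0.631 with *BC031181*) and *Aldh1a7* (0.631 with *Klf1*) had no gene as close. Within LT-HSC, *Aldh1a1* was nearest to *Mmrn1* (r = 0.976), or to *Tmod3* (0.843) without the 2 outlying libraries. *Nqo1* was nearest to *Cacna2d2* (0.926), or without those 2 to *Plin4* (0.937), and within HPC-1, *Aldh2* to *Vars* (0.940).

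Several members have close copies, which bears on their counts. *Abcb1a* (chr5:8660077-8748575, plus strand, GRCm38) and *Abcb1b* (chr5:8798147-8866315, plus strand) lie 49.6 kb apart, and their transcripts were 87.4% identical over 4049 aligned positions. Of all windows of 75 bases in the *Abcb1a* transcript, 11.4% occurred in another gene's transcript without mismatch, and 12.6% of those of *Abcb1b*. *Aldh1a1* (chr19:20492715-20643465, plus strand) and *Aldh1a7* (chr19:20692953-20727562, minus strand) face each other at a distance of 49.5 kb and were 89.0% identical, with 2.53% and 2.51% of windows shared. For *Gstm1* (chr3:108012255-108017973, minus strand) 14.8% of windows were shared, and for *Abcg2*, *Aldh2*, *Gstm5*, *Mgst1* and *Nqo1* 0%. The division of counts between *Abcb1a* and *Abcb1b*, and between *Gstm1* and its relatives, is thus less certain. With *Aldh1a1* and *Aldh1a7* summed the log2 fold change was 4.01, and with *Gstm1* to *Gstm7* summed it was 0.28. *Abcb1a*, *Abcb1b*, *Aldh1a1*, *Aldh2* and *Gstm5* overlap genes on the opposite strand, and whether the counting used strand is not given in the sources used here.

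Promoter sequences were taken from RefSeq (GRCm38.p6), 250 bases before each start, for 9 members with 14 promoters. *Aldh2* was not among them. Both strands were searched for 6 motifs. The antioxidant response element core TGACNNNGC, through which Nrf2 acts, was found in 2 of the 14, those of *Gstm5* and *Mgst1*, against 10.2% of 32851 promoters of the same length, and not in that of *Nqo1*. The aryl hydrocarbon receptor core GCGTG was in 3, those of *Gstm5* and both of *Gstm1* (28.2% of all promoters), the GC box GGGCGG in 6 (32.7%), the TATA box TATAAA in 3 (12.4%), the CCAAT box in 5 (33.8%) and the octamer ATGCAAAT, added after the sequences were seen, in 2 (1.60%). In *Gstm5* the first and second of these motifs overlap. The 2 *Gstm1* promoters overlap each other, and the GCGTG in both is the same site. A match is a description of letters and not of a bound site. Sequence further from the starts was not searched, so a motif not found here may lie outside these 250 bases.

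The promoters of the facing copies *Aldh1a1* and *Aldh1a7* are shown because 1 of the 2 genes was high in LT-HSC and the other near the limit of detection. Capitals mark matches to these motifs on either strand. The *Aldh1a1* promoter (chr19:20601718-20601967, plus strand) is that of the second of its 2 starts in the table, inside the gene, and the *Aldh1a7* promoter is at chr19:20727557-20727806 on the minus strand. Over the last 100 bases before the start, 94 bases were identical, 65 of them in 1 unbroken run that holds a CCAAT box and the octamer.
Aldh1a1: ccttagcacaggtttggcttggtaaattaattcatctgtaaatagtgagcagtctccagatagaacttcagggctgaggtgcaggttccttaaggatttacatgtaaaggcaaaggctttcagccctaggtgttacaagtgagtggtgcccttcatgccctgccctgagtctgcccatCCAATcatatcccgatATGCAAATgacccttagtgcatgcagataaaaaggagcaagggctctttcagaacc
Aldh1a7: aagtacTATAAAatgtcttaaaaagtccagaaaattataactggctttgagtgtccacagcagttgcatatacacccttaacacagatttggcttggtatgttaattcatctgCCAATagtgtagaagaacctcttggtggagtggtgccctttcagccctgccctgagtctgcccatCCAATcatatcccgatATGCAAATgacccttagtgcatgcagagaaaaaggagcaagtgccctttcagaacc

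The tandem pumps are shown for the same reason, since *Abcb1a* differed between the cell types and *Abcb1b* did not pass. None of the 6 motifs was in the *Abcb1a* promoter of the table (chr5:8566841-8567090, plus strand). It does not adjoin the annotated gene used for its length, which starts only at chr5:8660077. The 2 promoters are thus not alike in position, since that of *Abcb1b* ends directly before its annotated gene (chr5:8798147). The *Abcb1b* promoter (chr5:8797897-8798146, plus strand) held a GC box and CCAAT boxes on both strands.
Abcb1a: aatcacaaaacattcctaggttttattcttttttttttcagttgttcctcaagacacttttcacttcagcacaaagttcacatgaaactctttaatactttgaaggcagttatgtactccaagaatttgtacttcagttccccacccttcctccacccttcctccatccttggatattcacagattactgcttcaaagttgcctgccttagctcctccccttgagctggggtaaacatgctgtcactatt
Abcb1b: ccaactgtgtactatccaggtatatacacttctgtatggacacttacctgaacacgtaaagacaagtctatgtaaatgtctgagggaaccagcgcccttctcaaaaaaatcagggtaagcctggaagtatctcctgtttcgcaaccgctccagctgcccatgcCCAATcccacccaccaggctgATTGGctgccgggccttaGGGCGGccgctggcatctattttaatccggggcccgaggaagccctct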

How the data were processed

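Bulk RNA of sorted LT-HSC and HPC-1 was sequenced in 36 libraries. The authors prepared stranded total RNA libraries, kept samples with enough exonic reads, aligned them to mm10 and deposited RSEM expected counts per Ensembl gene in whole numbers without normalization. The methods name STAR as the aligner, and the submitters' processing notes list Bowtie2, RSEM 1.2.31 and DESeq2. Groups came from the labels, and no library was dropped.

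Counts were tested in R 4.3.3 with edgeR 4.0.16 (filterByExpr, TMM, robust quasi-likelihood fit), over all genes, with Benjamini-Hochberg adjustment at 0.05. LT-HSC against HPC-1 used 12 groups in 1 model, and the other comparisons the 6 groups of a cell type. Log2 CPM used a prior count of 2. A limit of 3 counts per library was used for detection, and it covers counting error only. Lengths and copies came from the first transcript of each gene in the GRCm38 annotation (GENCODE), which is the build of mm10. The functions were tested on simulated data.

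Named genes were all 10 members in every comparison, from each of 6 pathway lists up to 3 called genes per direction, by adjusted p, and the 3 genes most correlated with each member. The members and lists were chosen with earlier results of these data known, and 1 gene of the retinoic acid list is not reported here. Alternatives were DESeq2 1.42.0, limma-voom (limma 3.58.1) with sample weights, upper-quartile and RLE normalization, no filter, a filter at a mean of 10 counts, a fit without the robust option or over the compared groups only, a replicate block, a Y-linked covariate, libraries under 4 M counts, omission of libraries and summed copies. Omission of the *Apoe*-/- libraries together with those near HPC-1 was chosen after seeing the data.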

Additional observations from a re-analysis of the deposited data

Results flagged for a closer look

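In 4 groups of 4 libraries, 7 of 40 sets of values had 1 library far from the other 3, where chance gives about 1 in 20 groups. The share over all genes was not counted, so this number is not a result about the members. *Mgst1* was at 39.71 CPM in Ang II *Apoe*-/-*Il27ra*-/- LT-HSC replicate 2, against 0.370 to 3.17 CPM in the rest of its group, and this library also held the granulocyte markers. *Mgst1* was at 8.692 CPM in Ang II *Apoe*-/-*Il27ra*-/- HPC-1 replicate 3, where the others had 5.48 to 5.57 CPM. *Abcb1a* in Ang II *Apoe*-/-*Il27ra*-/- HPC-1 replicate 2 was at 5.913 CPM, from 17 counts, against 0.983 to 1.74 CPM. The same library had the lowest *Gstm5* of its group, 2.435 CPM from 7 counts, against 6.49 to 6.95 CPM. *Aldh2* in Ang II *Apoe*-/-*Il27ra*-/- HPC-1 replicate 4 reached 322.3 CPM, against 227 to 239.9 CPM, and that library is the one of its group over 4 M counts. *Abcg2* was at 31.48 CPM in Ang II *Apoe*-/-*Il27ra*+/- HPC-1 replicate 2, against 23.1 to 24.1 CPM. *Aldh1a7* had 0.969 CPM, from 6 counts, in Ang II *Apoe*-/-*Il27ra*+/- HPC-1 replicate 4 and no count in the other 3. No explanation of these values was tested.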

How the results depend on the processing

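The number of members that passed in LT-HSC against HPC-1 was 4 to 6 over 13 alternatives and 3 to 5 when each library was left out in turn. Over these 13 the share of all genes called was 19.6% (no filter) to 49.7% (mean of at least 10 counts). The shares with 1 library left out are not given here. *Abcb1a*, *Abcg2*, *Aldh1a1* and *Gstm5* passed under all 13, and *Gstm5* lost its call without Ang II *Apoe*-/- LT-HSC replicate 2 (0.58). For Ang II against PBS, and for the response by genotype, it was 0 under all 12 alternatives and with each library left out.

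For the comparisons of genotype, 0 members passed as reported, 2 with DESeq2, 2 without a filter on low counts (*Mgst1*), 1 with a mean of at least 10 counts and 2 without the outlying libraries, where not named *Nqo1*. With each library left out the number was 0 to 2. The shares of all genes called in these other fits are not given here, so these numbers are not a result about the members. *Nqo1* passed without the library labelled PBS *Apoe*-/- LT-HSC (adjusted p = 0.0474), without PBS *Apoe*-/-*Il27ra*-/- LT-HSC replicate 2 (0.0436) and, for both *Apoe*-/-*Il27ra*-/- and *Apoe*-/-*Il27ra*+/- against *Apoe*-/-, with *Apoe*-/-*Il27ra*+/- replicate 1 of Ang II LT-HSC left out (0.0461 and 0.0492), all from the edgeR quasi-likelihood fit after Benjamini-Hochberg adjustment. *Gstm5* passed for *Apoe*-/-*Il27ra*+/- against *Apoe*-/- without Ang II *Apoe*-/- LT-HSC replicate 1 (log2 fold change −1.76, which leaves 1 library assumed to vary like the other groups) and turned to 0.43 without replicate 2. The cause was not tested.

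Log2 fold changes between LT-HSC and HPC-1 that changed sign were those of members without a call, and their cause was not tested. *Nqo1* was −0.42 as reported, 0.17 with DESeq2, 0.71 with limma-voom, 0.36 in libraries under 4 M counts, 2.32 without the *Apoe*-/- libraries and 2.39 without these and the outlying libraries. By group it was 1.67 in PBS *Apoe*-/-*Il27ra*+/-, 3.41 in PBS *Apoe*-/-*Il27ra*-/-, 2.28 in Ang II *Apoe*-/-*Il27ra*+/-, 1.85 in Ang II *Apoe*-/-*Il27ra*-/- and −5.42 in Ang II *Apoe*-/-, where LT-HSC had no count and the value depends on the prior count. *Aldh1a7* was 0.10 with limma-voom, 0.58 in libraries under 4 M counts, 0.23 without the *Apoe*-/- libraries, 0.11 also without the outlying ones, 0.65 in PBS *Apoe*-/-*Il27ra*+/-, 1.17 in Ang II *Apoe*-/-*Il27ra*+/-, 0.97 in Ang II *Apoe*-/-*Il27ra*-/- and 4.01 when summed with *Aldh1a1*. *Mgst1* was −0.20 with limma-voom, −0.29 without the outlying libraries, −0.01 without the *Apoe*-/- libraries, −0.58 without both, −0.03 in PBS *Apoe*-/-*Il27ra*+/- and −1.26 in Ang II *Apoe*-/-*Il27ra*+/-. *Abcb1b* was 0.00 with the Y-linked covariate, 0.42 in Ang II *Apoe*-/-, 0.15 in Ang II *Apoe*-/-*Il27ra*+/- and 0.29 when summed with *Abcb1a*. *Gstm1* was −0.39 in Ang II *Apoe*-/- and −0.23 in Ang II *Apoe*-/-*Il27ra*+/-. *Mgst1* between Ang II *Apoe*-/-*Il27ra*-/- and *Apoe*-/-*Il27ra*+/- LT-HSC was −0.09 without the outlying libraries. With each library left out, *Nqo1* was −0.55 to 0.76, *Aldh1a7* −0.93 to 0.23, *Mgst1* −0.32 to 0.21 (between *Apoe*-/-*Il27ra*-/- and *Apoe*-/-*Il27ra*+/- −0.10 to 3.05), *Gstm1* −0.04 to 0.10 and *Gstm5* between *Apoe*-/-*Il27ra*+/- and *Apoe*-/- −1.76 to 0.43.

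With the replicate block, *Nqo1* was 0.08 and *Mgst1* −0.32 in LT-HSC against HPC-1, and the same 4 members passed together with *Aldh2* (edgeR quasi-likelihood fit, Benjamini-Hochberg adjusted p = 0.0132). In that fit 33.6% of all genes passed. Whether the numbers pair the samples was not settled. The deviations of same-numbered libraries correlated across cell types at −0.197 to 0.317, with 7 of 16 over 0.1. Such values cannot tell whether 2 libraries came from 1 mouse. In 4 of 17 such pairs only 1 library had Y-linked counts above the limit, so the numbers do not pair those. For the other pairs a shared mouse is possible, and the main fit treats all libraries as independent. At 1.98 to 6.86 M counts, *Aldh1a7* and *Nqo1* rest on few counts per library, and an absent count does not show absent RNA. With a mean of at least 10 counts neither had a value for LT-HSC against HPC-1, and with only the compared groups fitted *Nqo1* had none between Ang II *Apoe*-/-*Il27ra*-/- and *Apoe*-/- LT-HSC.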

Other observations

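Marker lists of 10 cell types were summed in each library. The medians in LT-HSC and HPC-1 were 3229 and 1128 CPM for HSC genes, led by *Kit*, 156 and 6802 CPM for multipotent progenitors, led by *Mpo*, and 74.6 and 5331 CPM for granulocytes, a list that also holds *Mpo*. They were 517 and 272 CPM for erythroid genes, 944 and 135 CPM for megakaryocytes, 3.57 and 47.2 CPM for mast cells and eosinophils, 15.4 and 145 CPM for B lymphoid genes and 136 and 194 CPM for endothelial and stromal genes. Hepatocyte genes, led by *Tat*, were at medians of 0.826 and 0.898 CPM, and the intestinal list at 538 and 519 CPM. The library labelled Ang II *Apoe*-/-*Il27ra*-/- LT-HSC replicate 2 also had the highest mast cell and eosinophil sum of all LT-HSC, 479 CPM, led by *Prg2* at 285 CPM, and 3302 CPM of erythroid genes. PBS *Apoe*-/-*Il27ra*-/- LT-HSC replicate 3 had 117 CPM and 3607 CPM of these, the latter led by *Hba-a2* at 1317 CPM. The library labelled PBS *Apoe*-/-*Il27ra*-/- LT-HSC replicate 2 had 5466 CPM of multipotent progenitor genes and 146 CPM of megakaryocyte genes.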
